A study of Caenorhabditis elegans with 4 samples.

Results

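The alpha- and beta-tubulin isotypes of *Caenorhabditis elegans*, a nematode worm, were followed in the germline and the soma. Their 9 genes were taken by name (*tba-1*, *tba-2*, *tba-4*, *tba-5* and *mec-12* for alpha-tubulin, *tbb-1*, *tbb-2*, *tbb-4* and *mec-7* for beta-tubulin). All 9 had a row among the 20181 rows of the count table. RNA was sequenced from 4 samples of young adults, 2 per group. The gonad group was dissected from N2, the wild-type laboratory strain, and the other group was the *glp-4 (bn2)* mutant taken as whole worms, with about 50 gonads or worms pooled per library. The *bn2* allele is temperature sensitive and is used to obtain worms with very few germ cells. Such worms keep their somatic tissues, the somatic gonad among them, and the labels give no growth temperature. The groups differ in genotype as well as in tissue, and these cannot be told apart here. The series set out to define transcripts enriched in or specific to germline and soma, and the comparison of the groups addresses that question.

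Microtubules are hollow polymers of alpha- and beta-tubulin dimers. They form the spindles of meiosis and mitosis, the axonemes of cilia and the tracks of axons. Worms, like other animals, carry several genes for each subunit, and the isotypes differ in where they are used. *tba-1*, *tba-2*, *tbb-1* and *tbb-2* supply the spindles of the early embryo and are used widely elsewhere. *mec-12* and *mec-7* are best known for the large-diameter microtubules of the touch receptor neurons, and *tba-5* and *tbb-4* for the cilia of sensory neurons.

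Library totals ranged from 19538620 to 25624824 counts, and the libraries of a group correlated at r = 0.998 (gonads) and 0.994 (whole worms) across genes, which are not independent replicates. All 16 germ cell markers were enriched in gonads, against 30.9% of all tested genes. Their summed level in whole worms was 1.41% of that in gonads. Markers of intestine (11 of 11), body wall muscle (9 of 9), epidermis and cuticle (10 of 10) and neurons in general (10 of 10) were enriched in whole worms, against 53.1% of all tested genes. Their summed gonad levels were 0.4%, 2.09%, 0.514% and 5.85% of the whole-worm level, in that order. Of 7 markers of the gonadal sheath and spermatheca, which are somatic cells of the gonad, 1 was enriched in gonads and 4 in whole worms. Of 10 sperm markers 6 could be tested, 4 of them enriched in gonads and 2 in whole worms. The lists used here and below were chosen with earlier results of these data known. Their counts are therefore no independent check of the groups. Nothing in the labels states separate cultures for the duplicates, and p-values therefore reflect the spread between these libraries alone, which may be technical.

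Gonads and whole worms differed in which isotypes were abundant. Here CPM means counts per 1e+06 counts of the library after TMM scaling, log2 fold changes are gonad minus whole worm, and enriched means an adjusted p under 0.05 together with a difference of 2-fold or more. Of the 9 isotypes, 2 (*tba-1* and *tbb-2*) were enriched in gonads, where 30.9% of all 13101 tested genes were. Enriched in whole worms were 4 (*tba-4*, *mec-12*, *tbb-4* and *mec-7*), against 53.1% of all tested genes. *tba-2* and *tbb-1* were higher in gonads by less than the fold minimum, and *tba-5* had too few counts to be tested. By the adjusted p alone, 4 isotypes were higher in gonads and 4 in whole worms, against 36.4% and 56.6% of all tested genes. The 8 tested isotypes thus all passed it, as did 93.0% of all tested genes. In every one of the 9 the CPM values of the groups did not overlap, as in 96.4% of tested genes. For the untested *tba-5* this rests on a few counts only. In bulk samples, fewer cells of a type and less RNA per cell cannot be told apart. CPM is also relative to the other transcripts of a library, so small differences, such as those of *tba-2* and *tbb-1*, can depend on the scaling.

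**Figure D1:**
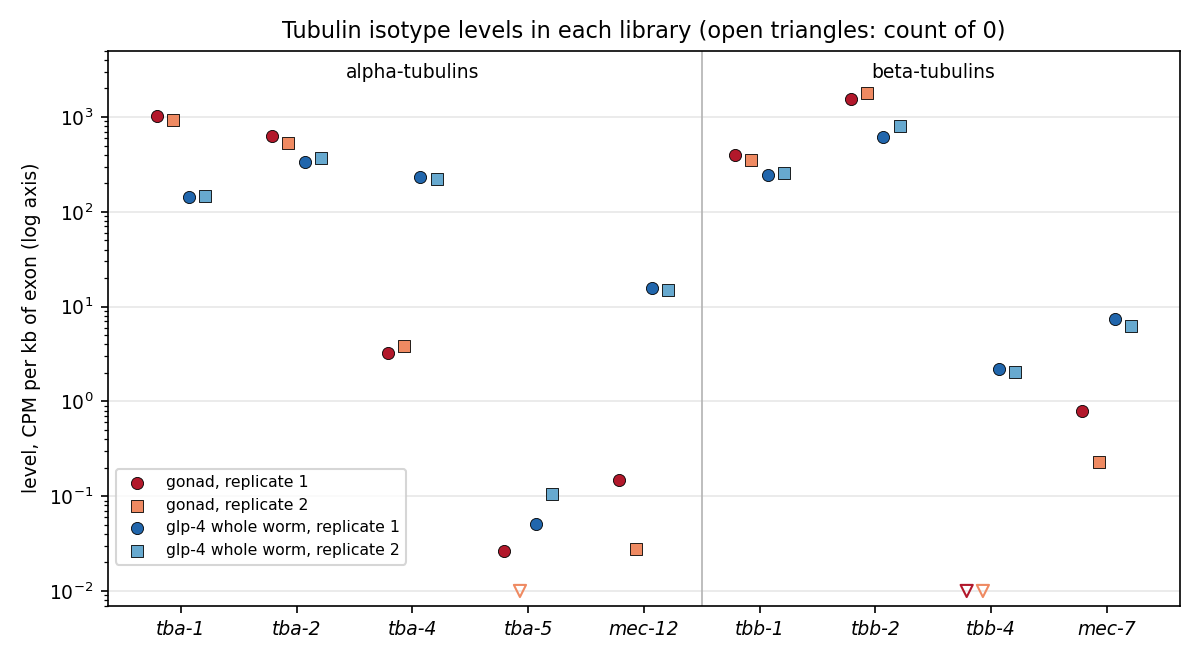
Level of each isotype in each of the 4 libraries, in CPM per kb of exon on a log axis (red and orange: gonads; blue: *glp-4* whole worms; open triangles: a count of 0). Gonad points lie above whole-worm points for *tba-1*, *tba-2*, *tbb-1* and *tbb-2* and below them for the other 5 isotypes.

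The widely used alpha-tubulins *tba-1* and *tba-2* were both higher in gonads. *tba-1* (WBGene00006528, chromosome I, 9785781 to 9787624 of WBcel235, minus strand) encodes a protein of 454 residues by its longest annotated transcript. It had 33041 and 31949 counts in gonads and 4667 and 5711 in whole worms, or 1568 and 1427 CPM against 216 and 221 CPM. Both gonad libraries lay far above both whole-worm libraries. The difference was 6.85-fold, a log2 fold change of 2.78 ± 0.16 (SE; adjusted p = 7.86e-13, quasi-likelihood test of edgeR, adjusted by Benjamini-Hochberg).

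*tba-2* (WBGene00006529, chromosome I, 12964674 to 12966795, minus strand) encodes a protein of 448 residues and acts alongside *tba-1* in embryonic spindles. Gonad libraries held 1069 and 898 CPM, and whole-worm libraries 559 and 617 CPM. The groups did not overlap, but the gap was small, with a log2 fold change of 0.74 ± 0.15 (SE; adjusted p = 1.17e-04, edgeR). Per length, *tba-1* stood at 1.62 and 1.76 times the level of *tba-2* in the gonad libraries and at 0.428 and 0.396 times in the whole worms. The order of these alpha-tubulins was therefore opposite in the groups, and this ratio does not depend on library scaling.

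The alpha-tubulin *tba-4* (WBGene00006530, chromosome II, 10918706 to 10920211, plus strand) had the steepest difference among the abundant isotypes. It had 97 and 121 counts in gonads and 7129 and 8091 in whole worms, which is 4.6 and 5.4 CPM against 330 and 313 CPM. The whole-worm level was 64.3-fold higher (log2 fold change -6.0 ± 0.17, SE; adjusted p = 1.54e-17, edgeR). The level left in gonads, 1.56% of that in whole worms, compares with 2.09% for the summed muscle markers and 0.4% for the summed intestine markers in the same libraries. What part tissue carried along with the gonads had in it was not tested.

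Among the beta-tubulins, *tbb-2* and *tbb-1* made up nearly all transcripts of the gonad. *tbb-2* (WBGene00006537, chromosome III, 4015910 to 4017627, minus strand) encodes a protein of 450 residues on which katanin, the severing enzyme of meiotic spindles, acts in preference to TBB-1. It had 49425 and 60314 counts in gonads and 20333 and 31345 in whole worms, or 2346 and 2694 CPM against 942 and 1213 CPM. It was the most abundant isotype per length in all 4 libraries, at ranks 47 and 45 of 19513 genes in gonads and 169 and 146 in whole worms. The difference was 2.34-fold (log2 fold change 1.23 ± 0.17, SE; adjusted p = 1.00e-06, edgeR). That is close to the fold minimum, and the log2 value ranged from 1.03 to 1.40 when each library was left out in turn.

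*tbb-1* (WBGene00006536, chromosome III, 10740868 to 10742432, minus strand), which encodes a protein of 449 residues and overlaps with *tbb-2* in function, had 591 and 522 CPM in gonads against 359 and 378 CPM in the mutant. Its log2 fold change of 0.59 ± 0.14 (SE; adjusted p = 5.51e-04, edgeR) was the smallest of the isotypes tested. Per length, *tbb-2* had 3.85 and 5.01 times the level of *tbb-1* in gonads and 2.55 and 3.11 times in whole worms. *tbb-2* was thus ahead in all 4 libraries, by more in gonads. *tba-1* and *tba-2*, and *tbb-1* and *tbb-2*, encode very similar proteins. How the authors' counting treated reads shared by such copies is not given in the sources used here, so the split within each pair is uncertain. The same limit holds for the few gonad counts of *tba-4* and *mec-7*, as the handling of shared reads is unknown for every tubulin gene.

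The touch neuron isotypes had few counts in gonads. *mec-12* (WBGene00003175, chromosome III, 3131574 to 3139234, minus strand), the acetylated alpha-tubulin of those neurons, had 5 and 1 counts in gonads and 555 and 619 in whole worms, or 0.237 and 0.0447 CPM against 25.7 and 24.0 CPM. After TMM scaling, the whole-worm to gonad ratio of summed counts was 179, with an exact counting interval (95%) from 82.1 to 490. Its fitted log2 fold change was -7.43 ± 0.35 (SE; adjusted p = 4.73e-14, edgeR), and leaving out gonad replicate 1 or 2 gave -8.92 or -6.66. Of its exon length 4.71% overlaps the gene *Y53G8B.1* on the opposite strand.

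*mec-7* (WBGene00003171, chromosome X, 7774856 to 7776689, minus strand) encodes the beta-tubulin of the same neurons, a protein of 441 residues. It had 26 and 8 counts in gonads and 251 and 252 in whole worms, or 1.23 and 0.357 CPM against 11.6 and 9.75 CPM. The gonad libraries differed by more than 3-fold from each other, yet both lay below the whole worms. The log2 fold change was -3.76 ± 0.35 (SE; adjusted p = 2.88e-09, edgeR), and leaving out gonad replicate 1 or 2 gave -4.84 or -3.09.

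Beside these, touch receptor neuron markers were low in gonads. Of 9 such genes 8 could be tested and all 8 were enriched in whole worms, against 53.1% of all tested genes. Their log2 fold changes had a median of -6.90. The median was -5.56 once the 1 gene without gonad counts was set to its bound, and -1.5 over all tested genes. The markers summed to 1.04 and 1.16 CPM in gonads and to 76.1 and 84.0 CPM in whole worms, so that the gonad level was 1.38% of the whole-worm level. *mec-12* stood at 0.568% and *mec-7* at 7.44%. Much of the marker sum was *mec-17* (47.3 and 46.5 CPM in whole worms), at 0.0506%. By single marker the gonad level ran from 0% to 113% of the whole-worm level, at a median of 1.3%. The highest was *mec-14*, which had too few counts to be tested, and the next was *mec-1* at 6.96%. Whether traces of neurons account for the *mec-7* counts of gonads was not tested.

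The ciliary isotypes had few counts anywhere. *tbb-4* (WBGene00006538, chromosome X, 9434452 to 9436893, minus strand) had 0 counts in both gonad libraries and 75 and 83 in whole worms, where it reached 3.47 and 3.21 CPM. Whole worms were at least 48.3-fold higher, taking 3 counts over the gonad group as the limit that a count of 0 allows (0.069 CPM; adjusted p = 6.46e-09, edgeR). *tba-5* (WBGene00006531, chromosome I, 8353382 to 8358273, plus strand) had 1 and 0 counts in gonads and 2 and 5 in whole worms. After TMM scaling, the ratio of whole-worm to gonad counts was 6.41 (exact counting interval 0.824 to 289). No difference was therefore detectable at this depth. Of 12 ciliated neuron markers 10 could be tested and 8 were enriched in whole worms, against 53.1% of all tested genes. The median log2 fold change of the 10 was -4.27 (-3.96 once genes without gonad counts were set to their bounds), and -1.5 over all tested genes. The transcription factor gene *daf-19* of that list, at a log2 fold change of -0.08, was not called. The summed gonad level of the list was 53.5% of the whole-worm level, and much of it was *daf-19* (39.4 and 44.8 CPM in gonads). By single marker the median was 6.0%, with *osm-3* at 61.0% and *osm-1* at 46.9%.

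**Figure D2:**
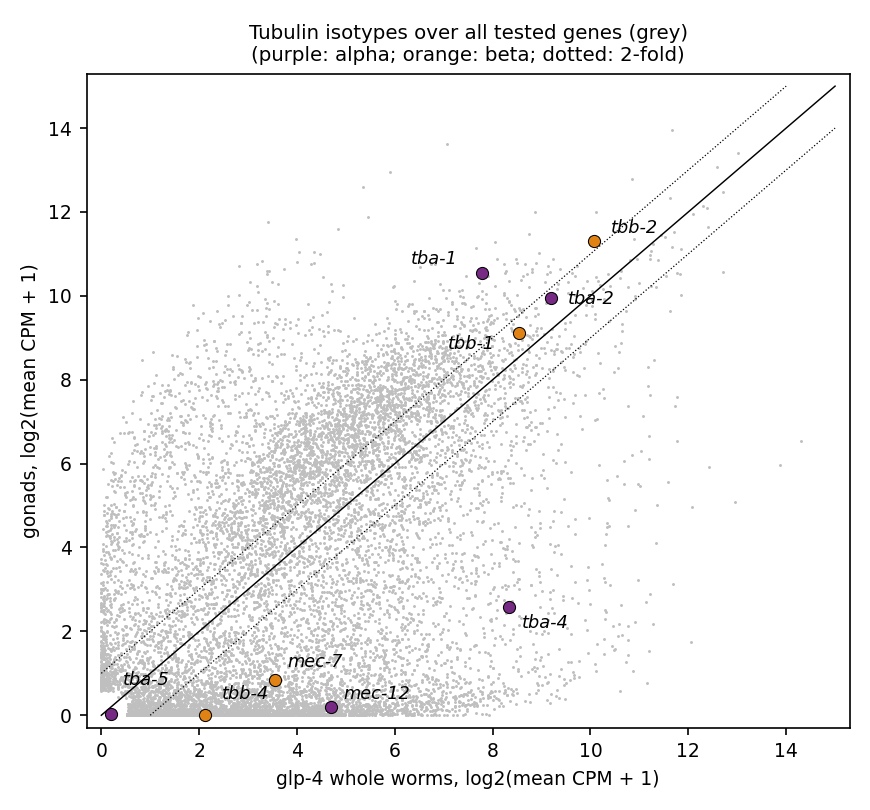
Mean level of each tested gene in gonads (vertical) and in *glp-4* whole worms (horizontal), both as log2(mean CPM + 1), with the 9 isotypes marked (purple: alpha; orange: beta; *tba-5* was too low to be tested). *tba-1*, *tba-2*, *tbb-1* and *tbb-2* lie above the line of equal level at the high end, *tba-4* far below it, and *mec-12*, *mec-7* and *tbb-4* near the floor of the gonad axis.

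Taken per length, the isotypes ranked differently in the groups. In gonads the order of mean levels was *tbb-2* at 1664 CPM per kb of exon, *tba-1* at 987, *tba-2* at 587 and *tbb-1* at 379, followed by *tba-4* at 3.55, *mec-7* at 0.509, *mec-12* at 0.0875 and *tba-5* at 0.0131. In whole worms it was *tbb-2* at 712 CPM per kb, *tba-2* at 351, *tbb-1* at 251, *tba-4* at 228 and *tba-1* at 144, with *mec-12* at 15.4, *mec-7* at 6.83, *tbb-4* at 2.14 and *tba-5* at 0.0787. The levels of neighbours in these orders did not overlap between libraries, but *tbb-1* (251 ± 9.22 CPM per kb, SD, n = 2) and *tba-4* (228 ± 8.58) of the whole worms lay close. In the gonads *mec-12* and *tba-5* were set apart only by single counts, and *tba-5* overlapped with *tbb-4*, which had none.

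Isotype make-up was then described as a share of the summed level per kb over all annotated alpha- or beta-tubulin genes, the 6 further ones included. In gonads *tba-1* held 62.6% ± 1.3 (SD, n = 2) of the alpha-tubulin transcripts and *tba-2* 37.1% ± 1.34, which left 0.227% ± 0.0453 for *tba-4*. In whole worms *tba-2* led with 46.2% ± 2.26, followed by *tba-4* with 30.1% ± 1.78 and *tba-1* with 19% ± 0.109. *mec-12* held 2.03% ± 0.145 there and 0.00533% ± 0.00489 in gonads. The alpha-tubulin pool of whole worms was thus spread over 3 abundant genes and that of gonads over 2.

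The beta-tubulin pool changed less. *tbb-2* held 80.4% ± 2.84 (SD, n = 2) in gonads and 70.9% ± 3.34 in whole worms, and *tbb-1* 18.4% ± 2.75 and 25.2% ± 2.4. *mec-7* held 0.695% ± 0.176 of the whole-worm pool and *tbb-4* 0.216% ± 0.0403. For all of these shares the libraries of the groups did not overlap, but an exact permutation test of 2 against 2 libraries cannot go below p = 0.333 (two-sided). The 95% Wilson intervals of the shares of counts were at most 1.24 percentage points wide. Small shares were known less precisely for their size, as for *tbb-4* in whole-worm replicate 1, at 0.253% of the beta-tubulin counts with an interval from 0.202% to 0.317%. Amplified reads are not independent molecules, so these intervals and the limits at a count of 0 cover counting error only.

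**Figure D3:**
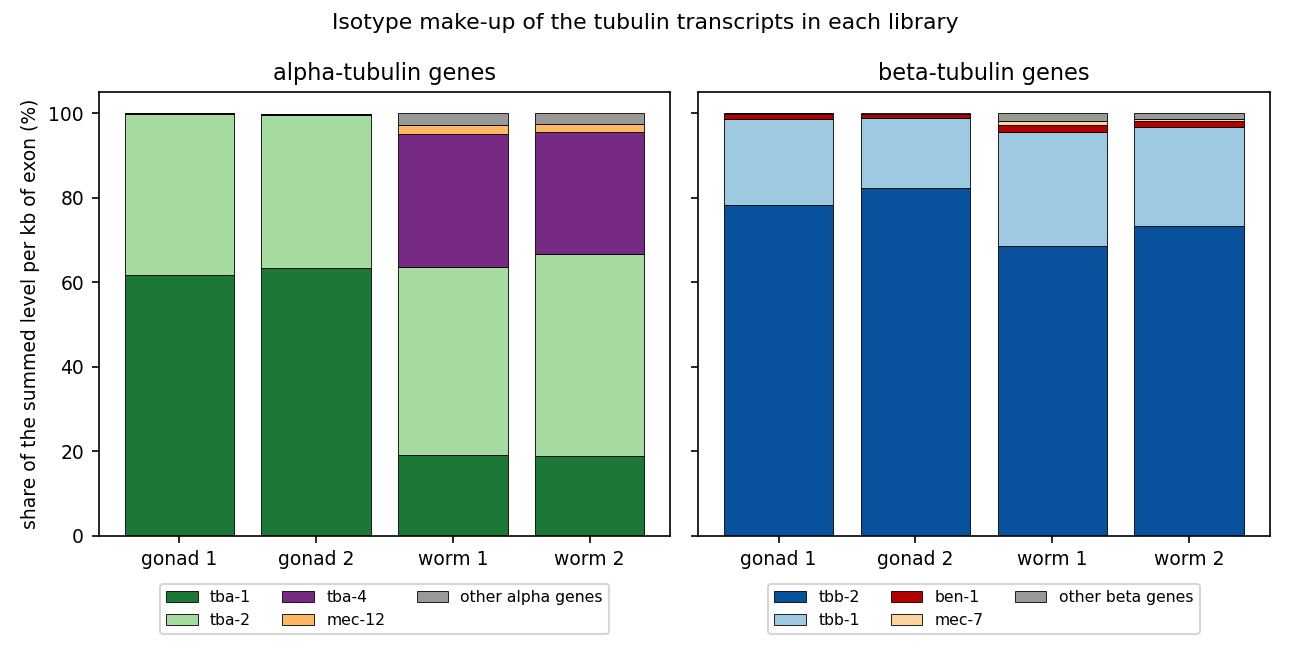
Share of each isotype (%) in the summed level per kb of exon of all alpha-tubulin (left) and all beta-tubulin genes (right), with a bar for each library. *tba-4* is visible in the whole-worm bars only (31.4% and 28.9%), while *tbb-2* is the largest part of every beta bar.

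The summed alpha- and beta-tubulin levels moved in parallel. Alpha-tubulin transcripts summed to 1675 and 1480 CPM per kb in gonads and 747 and 770 in whole worms, a mean ratio of 2.08. Beta-tubulin transcripts summed to 1977 and 2160 CPM per kb in gonads and 907 and 1093 in whole worms, a mean ratio of 2.07. With library totals alone in place of TMM these ratios were 1.87 and 1.86. The alpha level per beta level was 0.847 and 0.685 in gonads and 0.824 and 0.705 in whole worms. This balance varied between the libraries of a group (SD 0.114 and 0.0842, n = 2) by more than between the group means of 0.766 and 0.764 (exact permutation p = 1, two-sided). The higher value of each group belonged to its replicate 1.

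The mutant also held some germ cell transcripts. The 16 germ cell markers stood in whole worms at 0.569% to 6.87% of their gonad level, with a median of 1.16%. *tba-1* stood at 14.6%, *tbb-2* at 42.8%, *tba-2* at 59.7% and *tbb-1* at 66.3%. What part remaining germ cells had in these levels was not tested.

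Of the other 7 tubulin genes, 5 could be tested. Of these, 1 was enriched in gonads and 3 in whole worms, against 30.9% and 53.1% of all tested genes. The gamma-tubulin gene *tbg-1*, whose product nucleates microtubules at centrosomes, had 117 and 123 CPM in gonads against 16.2 and 20.5 CPM in the mutant (log2 fold change 2.71 ± 0.15, SE; adjusted p = 5.30e-13, edgeR). The beta-tubulin gene *ben-1*, known as the target of benzimidazole drugs, had 51.4 and 51.6 CPM in gonads against 33.6 and 30.7 CPM (log2 fold change 0.68 ± 0.14). The alpha-tubulin genes *tba-7* and *tba-9* and the beta-tubulin gene *tbb-6* were enriched in whole worms. *tba-7* had no count in gonads, and its 20.9 and 17.5 CPM in the mutant were at least 276-fold higher. *tba-9* had 1 gonad count in all and 501 in the mutant. After TMM scaling, their ratio was 459, with an exact counting interval from 82 to 18168. Its fitted log2 value was -7.68 when gonad replicate 1 was left out and -10.91 when gonad replicate 2 was. *tba-6* and *tba-8* had too few counts to be tested. *tba-6* had 0 and 1 counts in gonads and 6 and 7 in whole worms. After TMM scaling, its ratio of whole-worm to gonad counts was 11.9 (exact counting interval 1.79 to 506, counting error only).

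Genes that fold or modify tubulin were mostly higher in gonads. Of 17 listed genes 15 could be tested, and 9 were enriched in gonads and 4 in whole worms, against 30.9% and 53.1% of all tested genes. The median log2 fold change was 1.57, and -1.5 over all tested genes. The folding cofactor genes *tbce-1* (37.9 ± 1.3 CPM in gonads, 4.42 ± 0.232 in the mutant, SD, n = 2) and *tbcd-1* (107 ± 11.5 and 16.7 ± 2.92 CPM) had the highest fold changes, and *evl-20*, which encodes an Arl2-like GTPase of tubulin folding, rose by 1.75 ± 0.15 (SE) on the log2 scale. The tubulin glutamylase-like gene *ttll-5* had the highest level per length of the list, at 225 ± 4.95 CPM in gonads against 116 ± 0.47 in the mutant, just under the fold minimum. The 4 in whole worms included *mec-17*, the alpha-tubulin acetyltransferase gene of touch neurons and also one of the touch neuron markers. It had 1 gonad count in all and 1022 and 1201 counts in the mutant. After TMM scaling, the ratio of summed counts was 2037, with an exact counting interval from 365 to 80492. The fitted log2 value ran from -13.08 (without gonad replicate 1) to -9.78 (without gonad replicate 2). The gene *ttll-15* had no count in gonads and was at least 101-fold higher in whole worms.

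Microtubule-associated genes were split between the groups as well. Of 26 listed names 25 were found and tested, and 17 were enriched in gonads and 6 in whole worms, again beside 30.9% and 53.1% of all tested genes. The median was 2.09 on the log2 scale, and -1.5 over all tested genes. The katanin subunit gene *mei-2*, needed for the meiotic spindle, had 482 and 441 CPM in gonads against 3.29 and 3.52 CPM in the mutant (log2 fold change 7.08 ± 0.18, SE; adjusted p = 6.53e-18, edgeR). The other enriched extreme was *maph-1.2*, a homologue of vertebrate microtubule-associated proteins, at 238 ± 0.583 CPM in gonads against 3.92 ± 0.636 in the mutant (SD, n = 2). The depolymerizing kinesin gene *klp-7* had the highest CPM of the list in gonads, at 691 ± 128 CPM in gonads against 125 ± 31.7 in the mutant. In the opposite direction stood the EMAP-like gene *elp-1* (0.972 ± 0.237 against 73.4 ± 9.25 CPM) and the CLASP gene *cls-1* (7.29 ± 1.12 against 290 ± 27.6 CPM), which were 75.5-fold and 39.7-fold higher in whole worms.

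**Figure D4:**
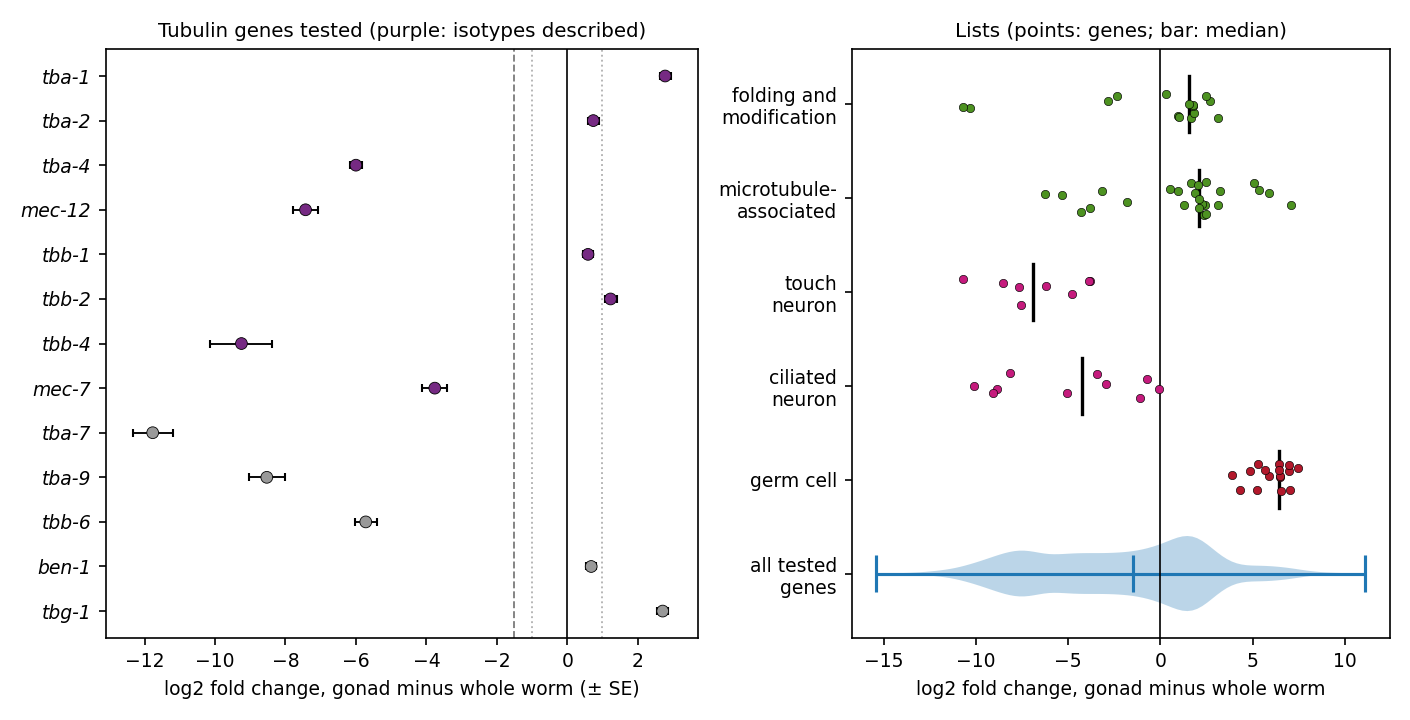
Left, log2 fold change (gonad minus *glp-4* whole worm, ± SE) of the tested tubulin genes (purple: isotypes described; grey: others; dotted lines: 2-fold; dashed line: median of all tested genes, -1.5). Right, the same for the genes of 5 lists with their medians and for all tested genes. *tba-1* at 2.78 and *tba-4* at -6.0 lie far apart, and the fitted values of *tbb-4* and *tba-7*, which have no gonad counts, are not bounds.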

How the data were processed

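Total RNA was depleted of ribosomal RNA and amplified to cDNA (Ovation RNA-Seq V2), per the labels' protocols. The authors deposited raw counts per gene, which were used for every result, and a normalized table on a log2 scale (counts scaled to the mean library total, plus 8), which was used as an alternative. Not given in the sources used here are the aligner, counter, build and strand setting. One row that repeated another was left out. Names, exon lengths and coordinates come from Ensembl 115 (WBcel235), which matched 19513 of 20181 rows by identifier.

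Counts were tested with edgeR 4.0.16 (R 4.3.3; TMM, filterByExpr with a minimum count of 10 and a minimum total of 15, robust quasi-likelihood fit, group as the only term) over all genes, with Benjamini-Hochberg adjustment. The procedure was tested on simulated data in which few genes differed between the groups. Here 93.0% of tested genes passed the adjusted p, so that test does not show how the scaling behaved in these data. Levels per length are TMM-adjusted CPM divided by the union of exons in kb. Alternatives used DESeq2 1.42.0 and limma 3.58.1. Replicates did not agree within sampling noise (chi-square per degree of freedom 13.9 for gonads and 14 for whole worms) and were counted separately. Isotypes and lists were chosen with earlier results of these data known. Named genes were the isotypes and, of each list, up to 2 enriched genes at each extreme of fold change and the 2 with the highest level per length, of which some marker genes are given as list counts only. Genes most like an isotype were sought by Euclidean distance.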

Additional observations from a re-analysis of the deposited data

How the results depend on the processing

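The counts of enriched isotypes (2 in gonads and 4 in whole worms) were the same under all 10 alternatives run, and the 8 tested isotypes and 5 other tubulin genes kept their direction and an adjusted p under 0.05 in all of them. Library totals alone shifted the fold changes of all genes by a median of -0.15 on the log2 scale. The authors' log2 table shifted them by -0.11 and DESeq2-type size factors by 0.08. Across scalings and tools *tba-2* ranged from 0.58 to 0.82 and *tbb-1* from 0.44 to 0.68. When each library was left out in turn, the ranges were 0.65 to 0.88 and 0.53 to 0.70. On the authors' log2 table, whose added 8 compresses low counts, the values of *mec-12* and *tbb-4* were -5.80 and -3.46. Of 60 shares recomputed with coding length or without length, 15 moved by more than the replicate SD. Among these were the shares of *tba-1* and *tba-2* in both groups and of *tba-4* in whole worms. With coding length, *tba-1* held 60.0% in gonads, and in whole worms *tba-2* held 49.8%, *tba-4* 27.3% and *tba-1* 18.3%. Their SD therefore does not cover the choice of length. Leaving out 1 of 2 libraries cannot move a mean by more than the replicate SD, so it says nothing of the stability of shares. Shares over positions unique to a single gene were not computed, since no transcript sequences were used here.

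With the replicate number as a block, 2 isotypes were enriched in gonads and 4 in whole worms, and 4019 and 6904 genes in all, against 4043 and 6952 without it. The labels do not say that a number marks a shared batch, and same-numbered deviations from the group means correlated at 0.218 across genes. Depth limits *tba-5*, *tba-6* and *tba-8*. The residual fold changes of *mec-12*, *mec-7* and *tba-9* rest on few gonad counts.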

Other observations

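Some microtubule-associated genes with related products stood on opposite sides of the comparison. These were named after their values were seen. Of the CLASP genes, *cls-2* reached 222 ± 17.6 CPM in gonads against 51 ± 7.94 in whole worms (SD, n = 2), whereas *cls-1* was higher in whole worms and *cls-3* differed by 0.54 ± 0.16 (SE) on the log2 scale. Of the *maph-1* genes, *maph-1.2* and *maph-1.3* (123 ± 0.674 against 3.65 ± 0.0151 CPM) were enriched in gonads and *maph-1.1* (9.47 ± 0.83 against 188 ± 46.7 CPM) in whole worms. They encode similar proteins, so their single values are uncertain where reads are shared.

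Likeness to an isotype was measured as the Euclidean distance of log2(CPM + 1) over the 4 libraries, among 7441 other named genes. Nearest to *tba-1*, which had the highest fold change, were *pbrm-1* (distance 0.38), *fib-1* (0.548) and *emb-5* (0.6), and 17 genes lay within a distance of 1. Nearest to *tbb-1*, which had the smallest difference, were *hsp-60* (0.179), *cct-5* (0.209) and *rpl-17* (0.232), with 62 genes within 1. Nearest to *tbb-4*, the isotype with the lowest fitted value, were *zmp-6* (0.04), *ttr-30* (0.042) and *flp-5* (0.0683), with 618 genes within 1, as many genes share low counts in whole worms and none in gonads. With 2 groups of 2 libraries such a distance holds little beyond the level in each group.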
